A study of Sus scrofa with 6 samples.

Results

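Genes that mark T cells, natural killer (NK) cells and B lymphocytes were followed in pig subcutaneous fat. They were a given list of 34 symbols, 20 of T cells, 7 of NK and other cytotoxic cells, and 7 of B and plasma cells. A row of the deposited tables was taken when its Ensembl identifier, with the version removed, carried 1 of these symbols. This found 29 of the 34 genes in 30 of 22844 rows, because GZMA has a pair of rows. CD3G, CD27, ZAP70, LAT and GZMB had no matched row and were not analysed here. The animals were Duroc × Landrace × Yorkshire hybrids, and their feed was either plain (control) or held 400 mg/kg of the plant polyphenol resveratrol. Each diet had 3 libraries of total RNA, and values are given in the order of libraries 1, 2 and 3. The labels do not give age or sex, and they do not say that the 3 libraries of a diet are different animals. The p-values therefore measure only the spread between these libraries, which may be technical. Of the 30 rows, 21 passed a minimum mean of 0.5 TPM over the 6 libraries and were tested (15 T cell, 4 NK and cytotoxic, 2 B and plasma cell rows). TPM is a transcript level scaled for transcript length and for the library total.

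T cells read antigen through a receptor that signals by the CD3 chains and the zeta chain CD247, with the kinase LCK and the co-receptors CD4 and CD8 beside it. NK cells and cytotoxic T cells kill by releasing perforin and granzymes. B cells mature into plasma cells, which lose surface B cell proteins and secrete antibody. Fat normally holds such cells among adipocytes, vessels and many macrophages, and pigs are known for large numbers of gamma-delta T cells and of T cells that carry CD4 together with CD8. In bulk tissue, fewer cells of a type and less RNA per cell cannot be told apart.

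The tissue had the markers of fat, with ADIPOQ, the adipokine adiponectin, lowest in control 1 at 3610 TPM and highest in resveratrol 2 at 4680 TPM. Control 2 was the shallowest library with 16251536 reads, and resveratrol 2 the deepest with 37943877. Control 2 held the highest TPM of the 6 libraries in 47.8% of all tested rows, and resveratrol 1 in 10.7%. With counts scaled instead by the trimmed mean of M values, TMM, these shares were 28.1% and 11.2%. Control 1 stood apart in tendon and cartilage genes, with a summed 118 TPM against 5.03 to 28.5 TPM in the other libraries. Without it the medians of the T cell, NK and B cell rows given next were 0.06, 0.41 and -0.33. The skin keratin KRT1 had 0 reads in every library. It was 1 of 8 skin genes, of which 6 had matched rows and 2 were tested. Their summed TPM ran from 6.17 in resveratrol 3 to 10.3 in control 2. Across the 14908 tested rows 0 passed edgeR's quasi-likelihood test at a Benjamini-Hochberg adjusted p under 0.05, which is 0.0%.

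Most of the member genes had low transcript levels in this fat, and no lymphocyte gene passed the test between diets. Apart from CD247, the member with the highest mean was NKG7, at the 53.0 percentile of mean TPM over all tested rows. In edgeR 0 of the 21 member rows passed the adjusted threshold and 0 had an unadjusted p under 0.05, against 6.53% of all rows tested. The smallest adjusted p among the members was 0.733. DESeq2 also called 0 of the 21, against 0.269% of all rows, with 0 at an unadjusted p under 0.05, against 7.39% of all rows. The fitted fold change was above 0 in 14 member rows and below 0 in 7, where 48.8% of all rows were above 0. The median log2 fold change, resveratrol against control, was 0.14 over the T cell rows, 0.32 over the NK and cytotoxic rows and -0.19 over the pair of B and plasma cell rows, against -0.0075 over all rows. In limma on log2(TPM + 0.5) these medians were 0.03, 0.11 and -0.23, against -0.079 over all rows, and with a minimum mean of 1 TPM in edgeR they were 0.35, 0.31 and -0.20. In edgeR without resveratrol 1 the count above 0 was 6 of 21, against 49.0% of all rows, and the medians were -0.21, -0.16 and -0.20. Resveratrol 1 held the highest TPM in 16 of these 21 rows. The lower count and the lower T cell and NK medians follow from that level and are not a separate result.

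**Figure D1:**
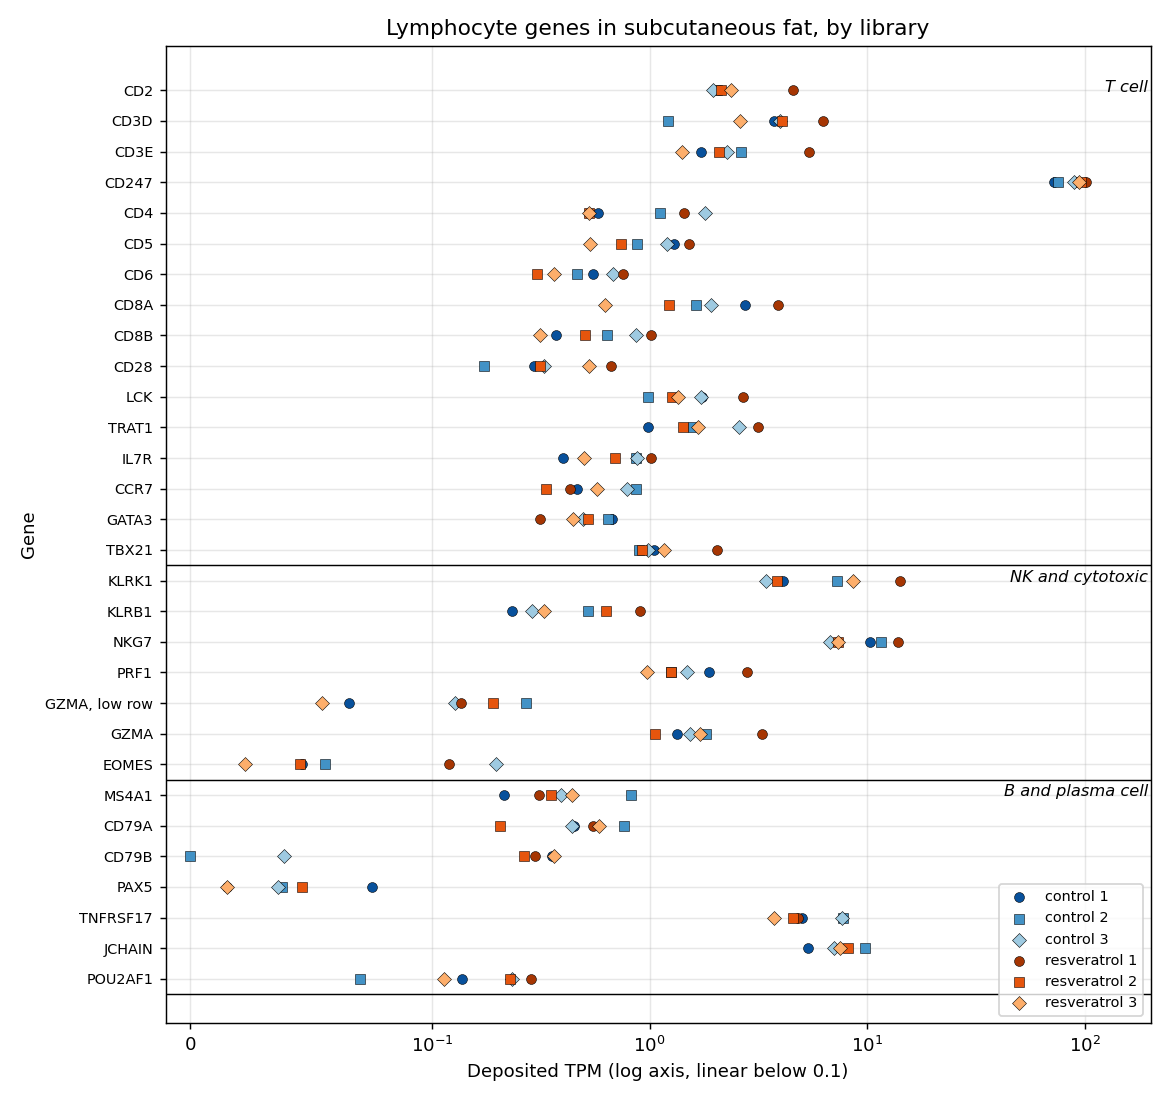
Deposited TPM of each of the 30 member rows (horizontal axis, log scale that is linear below 0.1) in each library (blue, control; brown to orange, resveratrol; circle, square and diamond for libraries 1, 2 and 3). CD247 lies between 72.4 and 101 TPM, while no other row exceeds 14.1 TPM, and resveratrol 1 is the rightmost point of most T cell and NK rows.

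The chains of the T cell receptor complex differed widely in level. CD3E (ENSSSCG00000040140.1), the epsilon chain, measured 1.72, 2.64 and 2.28 TPM on the control diet and 5.42, 2.08 and 1.41 TPM on resveratrol. Resveratrol 1 held the highest value and resveratrol 3 the lowest, so the control libraries lay inside the resveratrol range. Its log2 fold change was 0.50 (SE 0.49, 95% interval -0.59 to 1.58), and -0.26 without resveratrol 1. CD3D (ENSSSCG00000015093.4), the delta chain, measured 3.72, 1.22 and 3.99 TPM on the control diet and 6.29, 4.05 and 2.61 TPM on resveratrol. The low value of control 2 rests on 9 reads, and the groups overlapped (log2 fold change 0.42, SE 0.49, and 0.04 without resveratrol 1).

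CD247 (ENSSSCG00000006309.4), the zeta chain, measured 72.4, 75.2 and 88.8 TPM on the control diet and 101, 95.4 and 93.9 TPM on resveratrol. The groups did not overlap, as in 4.11% of all rows in this direction and 12.3% in either, though control 3 lay nearer to resveratrol 3 than to the other control libraries. The log2 fold change was 0.36 (SE 0.17, 95% interval -0.03 to 0.74), with an edgeR adjusted p of 0.733, and 0.35 without resveratrol 1. Its level was unlike that of its partners. CD247 stood at the 92.1 percentile of mean TPM over all tested rows, and CD3D and CD3E at the 28.7 and 22.3 percentiles. Within a library CD247 was 17.2 (resveratrol 1) to 46.7 (resveratrol 3) times the mean TPM of CD3D and CD3E. That ratio was lowest where CD3D and CD3E were highest. The zeta chain also serves NK cell receptors, and the part of NK cells in this level was not tested. In the RefSeq annotation of Sscrofa11.1 the genes on either side are CREG1 and POU2F1. CREG1, chosen after its values were seen, measured between 245 TPM in control 2 and 366 TPM in control 3 (log2 fold change 0.09), and POU2F1 between 1.63 and 4.77 TPM. Whether reads of a neighbouring gene enter the CD247 row was not tested. The level of CD247 is therefore reported apart from the other T cell genes in the sums given later.

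Surface molecules of T cells showed the same high library. CD2 (ENSSSCG00000006736.3), an adhesion receptor of T and NK cells, measured 2.09, 2.05 and 1.95 TPM on the control diet and 4.54, 2.13 and 2.37 TPM on resveratrol. In TPM the groups did not overlap, as in 4.11% of all rows in this direction and 12.3% in either, but resveratrol 2 lay only just above control 1. On TMM-scaled counts the groups overlapped, with resveratrol 2 at -0.17 and control 1 at -0.14 (log2, relative to the mean of the 6 libraries). CD2 had a log2 fold change of 0.65 (SE 0.32, 95% interval -0.06 to 1.36) with an edgeR adjusted p of 0.733, and one of 0.26 without resveratrol 1. CD5 (ENSSSCG00000013115.4), which dampens receptor signals, measured 1.3, 0.871 and 1.2 TPM on the control diet and 1.51, 0.741 and 0.533 TPM on resveratrol. Here the resveratrol libraries took both ends of the range (log2 fold change -0.24, SE 0.41, and -0.74 without resveratrol 1). The related receptor CD6 lay between 0.304 TPM in resveratrol 2 and 0.755 TPM in resveratrol 1.

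The co-receptors spanned wide ranges within each diet. CD8A (ENSSSCG00000008217.4), the alpha chain of CD8, which pig NK cells carry too, measured 2.74, 1.63 and 1.91 TPM on the control diet and 3.91, 1.23 and 0.627 TPM on resveratrol. The highest and the lowest library were both on resveratrol. Its log2 fold change was -0.13 (SE 0.59, 95% interval -1.44 to 1.19). Without resveratrol 1 it was -1.16 at an unadjusted p of 0.0476 in edgeR, in a fit where 2.23% of all rows were lower at that threshold and 0.0% passed the adjusted one. CD8B, the beta chain found mainly on T cells, lay between 0.313 TPM in resveratrol 3 and 1.01 TPM in resveratrol 1.

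CD4 (ENSSSCG00000000687.3), the co-receptor of helper T cells, measured 0.58, 1.12 and 1.8 TPM on the control diet and 1.44, 0.529 and 0.529 TPM on resveratrol. Control 3 and resveratrol 1 were high and the other libraries of each diet lower, and the log2 fold change was -0.42 (SE 0.52). The ratio of CD4 to CD8A in TPM was 0.211, 0.689 and 0.941 in control 1, 2 and 3 and 0.367, 0.431 and 0.844 in resveratrol 1, 2 and 3. These ratios overlapped fully, and CD8A had the higher TPM in all 6 libraries.

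LCK (ENSSSCG00000003608.3), the kinase that starts receptor signalling, measured 1.75, 0.984 and 1.72 TPM on the control diet and 2.7, 1.27 and 1.35 TPM on resveratrol. Only resveratrol 1 exceeded all control values (log2 fold change 0.29, SE 0.38, and -0.11 without it). TRAT1 (ENSSSCG00000023842.2), an adaptor that stabilises the receptor complex, measured 0.988, 1.59 and 2.57 TPM on the control diet and 3.16, 1.42 and 1.67 TPM on resveratrol. Its log2 fold change was 0.32 (SE 0.49), and -0.08 without resveratrol 1. CD28, the co-stimulatory receptor, had 2 to 19 reads per library and was not tested.

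**Figure D2:**
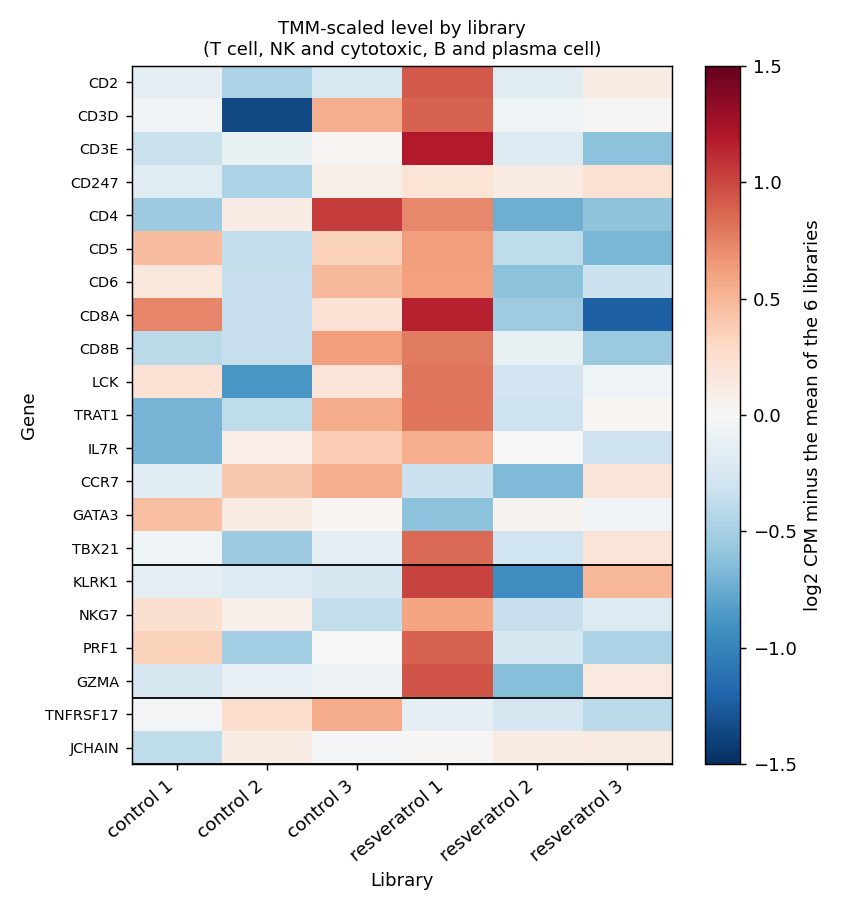
TMM-scaled log2 CPM (counts scaled to the library total) of the 21 tested rows in each library, as the difference from the mean of the 6 libraries (red higher, blue lower). Resveratrol 1 is red across most T cell rows and all 4 NK and cytotoxic rows, up to 1.19 for CD3E, while CCR7, GATA3 and TNFRSF17 are below their mean there.

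Genes of T cell state did not all follow the receptor genes. TBX21 (ENSSSCG00000017517.4), the transcription factor of type 1 helper and cytotoxic cells, measured 1.05, 0.899 and 0.988 TPM on the control diet and 2.04, 0.919 and 1.17 TPM on resveratrol (log2 fold change 0.56, SE 0.35, and 0.20 without resveratrol 1). GATA3, the factor of type 2 helper cells that other tissues also use, averaged 0.604 ± 0.095 TPM on the control diet and 0.427 ± 0.107 TPM on resveratrol (SD, n = 3 each). Resveratrol 1, high in TBX21, held the lowest GATA3 value. GATA3 had only 20 to 42 reads per library, and its mean of 0.515 TPM was just over the filter. CCR7, the homing receptor of naive and memory T cells, averaged 0.707 ± 0.212 against 0.445 ± 0.12 TPM (SD, n = 3 each), on 21 to 42 reads per library. IL7R, the receptor for the survival factor interleukin 7, had its lowest value, 0.4 TPM, in control 1 and its highest, 1.02 TPM, in resveratrol 1. The log2 fold changes of GATA3, CCR7 and IL7R were -0.41 (SE 0.39), -0.55 (SE 0.43) and 0.14 (SE 0.41), and the groups overlapped for each.

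NK and cytotoxic genes were led by NKG7 and KLRK1. NKG7 (ENSSSCG00000003231.4), a granule membrane protein, measured 10.3, 11.6 and 6.76 TPM on the control diet and 13.8, 7.3 and 7.33 TPM on resveratrol. Resveratrol 1 was the highest and control 3 the lowest, and the log2 fold change was 0.07 (SE 0.31, 95% interval -0.62 to 0.77). Leaving out resveratrol 1 gave -0.27, and limma on log2(TPM + 0.5) gave -0.04. KLRK1 (ENSSSCG00000040465.1), the activating receptor NKG2D, measured 4.12, 7.27 and 3.43 TPM on the control diet and 14.1, 3.86 and 8.59 TPM on resveratrol. In TPM resveratrol 1 and 3 were the highest, but resveratrol 2 lay among the control libraries. On TMM-scaled counts resveratrol 2 was the lowest of the 6 libraries, at -0.93 against -0.25 to -0.14 in control (log2, relative to the mean). The log2 fold change was 0.60 (SE 0.44), and 0.16 without resveratrol 1. TPM and reads of KLRK1 were not in step. Reads per TPM were 15.5, 5.09 and 17.8 in control 1, 2 and 3 and 12.9, 11.9 and 13.5 in resveratrol 1, 2 and 3. Control 2, with 37 reads, had the smallest library total, which lowers reads per TPM of genes in general. The resveratrol libraries had larger totals than control 1 and 3 but fewer reads per TPM. The reason was not tested.

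PRF1 (ENSSSCG00000010271.3), the pore-forming perforin, measured 1.87, 1.25 and 1.48 TPM on the control diet and 2.81, 1.26 and 0.974 TPM on resveratrol. Its log2 fold change was 0.19 (SE 0.39), and -0.36 without resveratrol 1. GZMA, granzyme A, had a pair of rows, which the RefSeq annotation also lists as neighbouring entries, so the split of reads between them is uncertain. The higher one (ENSSSCG00000016903.3) measured 1.34, 1.81 and 1.53 TPM on the control diet and 3.28, 1.06 and 1.71 TPM on resveratrol (log2 fold change 0.45, SE 0.42, and -0.04 without resveratrol 1), and the other had 2 to 7 reads per library. KLRB1, the receptor CD161, had 4 to 22 reads, and EOMES, a factor of NK and memory T cells, 3 to 22 reads.

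**Figure D3:**
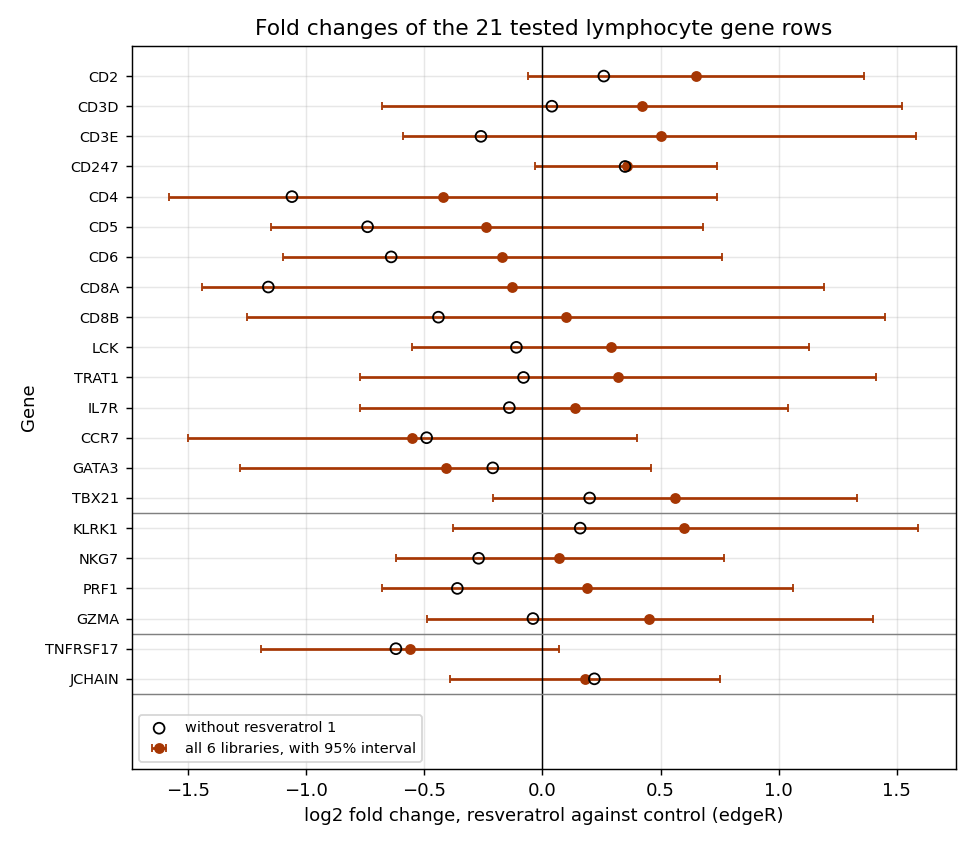
Log2 fold change of each tested row, resveratrol against control, with its 95% interval from edgeR (filled points, all 6 libraries) and the value without resveratrol 1 (open circles). Every interval includes 0, and 13 of the 15 T cell open circles and all 4 of the NK and cytotoxic ones lie to the left of their filled points. These counts follow from the high level of resveratrol 1 in the same rows and are not a separate result.

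Genes of mature B cells were near the limit of detection. MS4A1, the surface protein CD20, had 8, 15 and 15 reads on the control diet and 14, 16 and 20 reads on resveratrol, with 0.214 TPM in control 1 and 0.82 TPM in control 2 as the lowest and highest levels. CD79A, a signalling chain of the B cell receptor, had 6 to 17 reads per library and, at a mean of 0.499 TPM, lay just under the filter. Its partner CD79B had 9, 0 and 1 reads on the control diet and 9, 8 and 11 on resveratrol, where a count of 0 allows up to 3 reads. PAX5, the factor that fixes B cell identity, had 0 to 3 reads (its deposited TPM is above 0 in all libraries, those with 0 reads included), and POU2AF1, a co-activator at antibody gene promoters, 1 to 10. None of these 5 genes passed the filter, so the diets were not compared in them.

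JCHAIN and TNFRSF17, the pair of B and plasma cell members that were tested, stood higher. JCHAIN (ENSSSCG00000035379.1), which links antibody molecules into polymers, measured 5.33, 9.74 and 7 TPM on the control diet and 7.51, 8.17 and 7.52 TPM on resveratrol. The resveratrol libraries lay within the control range (log2 fold change 0.18, SE 0.26, 95% interval -0.39 to 0.75). Within a library JCHAIN was 11.9 to 24.9 times MS4A1 in TPM. TNFRSF17 (ENSSSCG00000032578.1), the receptor BCMA that keeps plasma cells alive, measured 5, 7.7 and 7.68 TPM on the control diet and 4.82, 4.54 and 3.73 TPM on resveratrol. Every resveratrol library was below every control library, as in 8.15% of all rows, though control 1 and resveratrol 1 nearly met. TNFRSF17 averaged 6.79 ± 1.55 against 4.36 ± 0.567 TPM (SD, n = 3 each), with a log2 fold change of -0.56 (SE 0.28, 95% interval -1.19 to 0.07) and an edgeR adjusted p of 0.733. It was -0.62 without resveratrol 1, and lower under all 16 alternative settings (-0.70 to -0.39). The ratio of TNFRSF17 to JCHAIN in TPM was 0.938, 0.791 and 1.1 in control and 0.641, 0.556 and 0.495 in resveratrol. This ratio uses the same TNFRSF17 values and is not a separate result. Plasma cell genes outside the members were lower, with mean levels of 1.13 TPM for MZB1, 0.921 TPM for DERL3 and 0.351 TPM for PRDM1, chosen after their values were seen. The log2 fold change was 0.24 (SE 0.43) for MZB1 and 0.62 (SE 0.56) for DERL3.

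Resveratrol 1 was the highest library for most T and NK genes. It held the highest TPM in 12 of 15 T cell rows, 4 of 4 NK and cytotoxic rows and 0 of 2 B and plasma cell rows, against 10.7% of all rows tested. On TMM-scaled counts these numbers were 11, 4 and 0, against 11.2%. Summed TPM of the 15 matched T cell genes other than CD247 was 18.7, 16.7 and 22.4 in control 1, 2 and 3 and 35.2, 17.0 and 15 in resveratrol 1, 2 and 3. The sum over the 7 NK and cytotoxic rows was 17.9, 22.8 and 13.8 in control and 35.2, 14.3 and 19.0 in resveratrol. Both sums in resveratrol 2 and 3 were within or below the range of the control libraries. The B and plasma cell sum ran from 11.6 (control 1) to 19.1 (control 2), with 13.8, 13.8 and 12.8 in resveratrol.

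**Figure D4:**
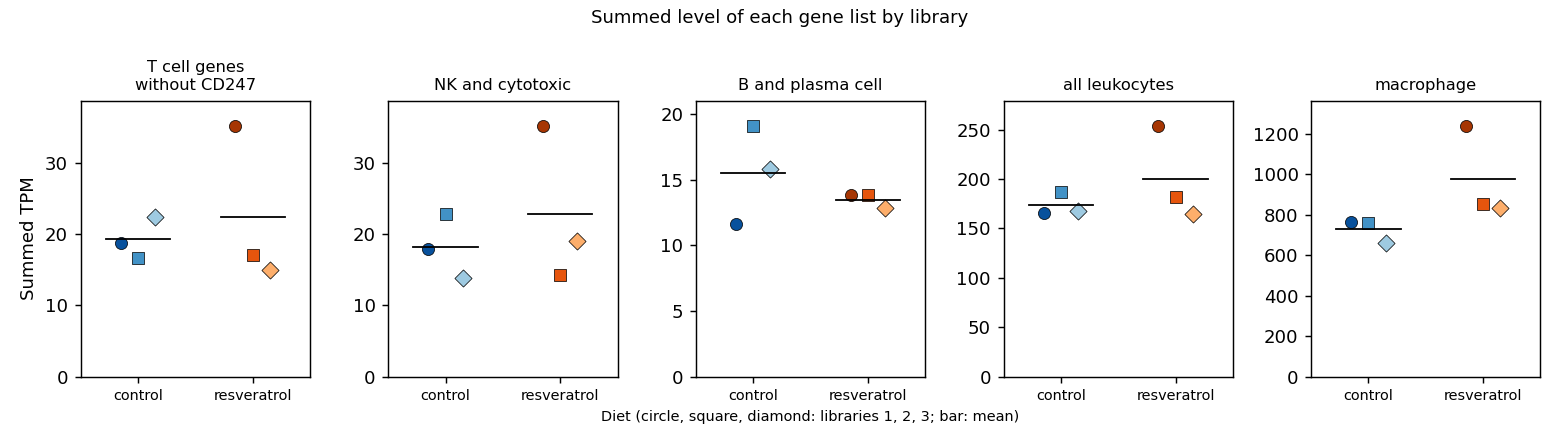
Summed TPM of each gene list (vertical axis from 0, a different scale in each panel) in each library, with the mean of 3 libraries as a bar. Resveratrol 1 stands above the other libraries in the T cell, NK, leukocyte and macrophage panels, at 35.2, 35.2, 254 and 1240, and not in the B and plasma cell panel.

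Other blood cell markers were high in the same library. All 15 tested genes that leukocytes share had their highest TMM-scaled count in resveratrol 1. Their summed TPM was 166, 187 and 168 in control 1, 2 and 3 and 254, 182 and 165 in resveratrol 1, 2 and 3. Of them 13 were higher on average in resveratrol (median log2 fold change 0.23), and 6 without resveratrol 1 (median -0.04). CD53, a leukocyte tetraspanin, had a log2 fold change of 0.47 at an unadjusted p of 0.0184 in edgeR (adjusted p = 0.733). LAPTM5, ARHGDIB and LCP1, the most abundant of the others, had log2 fold changes of 0.31, 0.17 and 0.30. Set against this leukocyte sum, the T cell sum was 11.3%, 8.93% and 13.4% in the control libraries and 13.9%, 9.37% and 9.09% in the resveratrol libraries. Resveratrol 1 was the highest, and control 3 lay close to it. The NK and cytotoxic sum was 10.8%, 12.2% and 8.22% of the leukocyte sum in control and 13.9%, 7.89% and 11.5% in resveratrol. Resveratrol 1 was again the highest library. These percents compare summed TPM and are not shares of cells.

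Macrophage markers were high in resveratrol 1 too, and their summed level did not overlap between diets. Taken singly, 4 of the 15 rows were higher in resveratrol with no overlap in TPM, against 4.11% of all rows. All 15 macrophage genes were tested and had fold changes above 0, and 7 of them had an unadjusted p under 0.05, against 2.21% of all rows in that direction. Their summed TPM was 660.0 to 764 on the control diet and 1240, 851 and 831 in resveratrol 1, 2 and 3. The median was 0.50. Without resveratrol 1 the median was 0.25, with 14 genes above 0 and 2 at an unadjusted p under 0.05, against 1.5% of all rows higher. Neutrophil and mast cell genes summed to 146, 107 and 102 TPM in control 1, 2 and 3 and to 274, 150.0 and 206 TPM in resveratrol 1, 2 and 3. Of their 6 tested rows 5 were above 0 (median 0.54), 3 of them at an unadjusted p under 0.05, and without resveratrol 1 the median was 0.45 with 2 at that threshold. Lymphatic endothelial genes had a median of -1.28 over 5 rows, 4 of them lower at an unadjusted p under 0.05, against 4.32% of all rows. Control 1 held the highest TPM in 4 of these rows. Their summed TPM overlapped, at 39.4, 35.7 and 21.5 in control 1, 2 and 3 and 30.3, 23.3 and 16.6 in resveratrol 1, 2 and 3. The median was -0.88 without control 1, with 3 rows at that threshold in edgeR, and -1.53 without resveratrol 1, with 4 rows. The part of macrophages, granulocytes or lymphatic vessels in the lymphocyte values was not tested.

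Other genes of T and NK cells were counted in the same way. Of 34 other T cell genes 18 were tested, 10 higher and 8 lower in resveratrol with a median of 0.08 (-0.11 without resveratrol 1), and 0 had an unadjusted p under 0.05 in edgeR. Its most abundant members, the signalling proteins BCL10, PLCG1, MALT1 and VAV1, which many cells use, had log2 fold changes of -0.17, -0.33, 0.07 and 0.13. Among 21 other NK and cytotoxic genes 12 were tested, 10 higher and 2 lower (median 0.25), again with 0 at that threshold. All 12 had their highest TPM in resveratrol 1, and without that library 3 were higher and the median was -0.22. GNLY (ENSSSCG00000008228.3), the pig granulysin that perforates microbes, measured 31.1, 25.5 and 24 TPM on the control diet and 49.2, 25.4 and 25.3 TPM on resveratrol. It thus stood above every member but CD247. CCL5, a chemokine that T cells release, measured 33, 19.4 and 22.1 TPM on the control diet and 51.2, 27.3 and 21.3 TPM on resveratrol. CTSW and KLRG1 had log2 fold changes of 0.21 and 0.05.

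**Figure D5:**
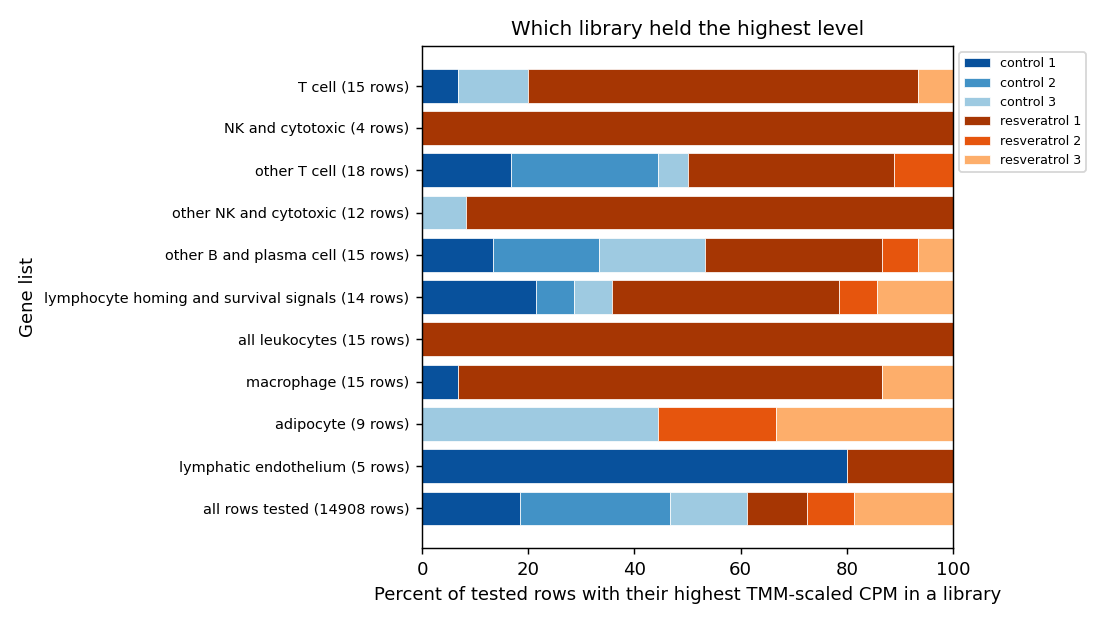
Percent of the tested rows of each list (horizontal axis, stacked to 100) whose highest TMM-scaled count was in each library (blue, control; brown to orange, resveratrol). Resveratrol 1 takes 11 of 15 T cell rows, all 4 NK and cytotoxic rows and all 15 leukocyte rows, 0 of 9 adipocyte rows, and 11.2% of all rows.

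Of 24 other B and plasma cell genes 15 were tested, 10 higher and 5 lower (median 0.14, and 0.01 without resveratrol 1). BTK, a kinase of B cells that macrophages and mast cells also use, was the 1 gene of these with an unadjusted p under 0.05 in edgeR. In its direction 2.21% of all rows reached that threshold. The mean of BTK was 2.28 ± 0.338 TPM without resveratrol and 3.42 ± 0.486 TPM with it (SD, n = 3 each). Its log2 fold change was 0.67 (edgeR adjusted p = 0.733). The groups did not overlap in TPM, as in 4.11% of all rows in this direction. IRF8, VPREB3 and CD38 had log2 fold changes of -0.07, -0.05 and -0.13.

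Some signals that attract or keep lymphocytes were far more abundant than the members other than CD247, and others were as low. CXCL12, a stromal chemokine, averaged 352 ± 61.0 TPM on the control diet and 376 ± 56.7 TPM on resveratrol, and CCL19, a ligand of CCR7, 184 ± 54.7 against 199 ± 5.05 TPM (SD, n = 3 each). S1PR1, the receptor by which lymphocytes leave tissue and which endothelium also carries, averaged 37.6 ± 1.62 against 32.5 ± 2.63 TPM. Of 22 such genes 14 were tested, 10 higher and 4 lower (median 0.25, and 0.12 without resveratrol 1). CXCL9, an interferon-induced chemokine for T and NK cells, measured 7.56, 10.6 and 11.8 TPM on the control diet and 29.4, 9.39 and 18 TPM on resveratrol. It had a log2 fold change of 1.0 at an unadjusted p of 0.0315 in edgeR (adjusted p = 0.733), and of 0.57 without resveratrol 1. CXCL10, CCL21 and the BCMA ligands were chosen after their values were seen. CXCL10 measured 14.4, 28 and 20.4 TPM on the control diet and 67.1, 13.1 and 30.8 TPM on resveratrol (log2 fold change 0.94, and 0.24 without resveratrol 1). CCL21, the second CCR7 ligand, which lymphatic endothelium makes, averaged 17.5 ± 8.48 against 8.21 ± 4.73 TPM with overlapping groups. TNFSF13B and TNFSF13, the ligands BAFF and APRIL, had log2 fold changes of 0.29 and -0.04.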

How the data were processed

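Trizol RNA went into a library kit for long non-coding RNA, per the labels' protocols. The authors deposited 1 table per library with whole-number read counts and TPM for 22844 rows, per the file headers. The submitters' processing notes name Bowtie 0.12.2 beside mm8 and mm9, which are mouse builds, while the rows carry pig identifiers. Which pig build, counter and strand setting were used is not given in the sources used here, so no coordinates are printed, and reads of overlapping genes or close copies cannot be assigned with certainty. Symbols came from a table of pig gene identifiers, which matched 14750 rows.

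The 14908 rows whose mean reached 0.5 TPM were tested with edgeR 4.0.16 (R 4.3.3, TMM scaling, robust quasi-likelihood test) and Benjamini-Hochberg adjustment over all rows, with a threshold of 0.05. The biological coefficient of variation was 0.235. Intervals are 95% intervals of the fitted fold change. The deposited TPM values were not rescaled. DESeq2 1.42.0, limma 3.58.1 on log2(TPM + pseudocount), other scalings and filters, a replicate block and leaving out each library were alternatives. The script was tested on simulated data. The members and lists were chosen with earlier results of these data known. Members with a mean of at least 1 TPM are given by library. From each other list, up to 4 genes are named by unadjusted p and then by mean TPM. No sequence is shown, since none was in the files used.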

Additional observations from a re-analysis of the deposited data

How the results depend on the processing

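No member passed the adjusted threshold under any of 16 alternatives, and 9 of 21 kept their direction in all that tested them. Over all rows, edgeR called 0, DESeq2 40 and limma 0, and leaving out 1 library gave 0 to 5, the latter without control 2. Leaving out 1 library moved the median log2 fold change of the T cell rows from -0.21 to 0.44, of the NK and cytotoxic rows from -0.16 to 0.57 and of the B and plasma cell rows from -0.33 to -0.09. Leaving out resveratrol 1 turned the first 2 negative. Without CD247 the T cell median was 0.12, and it was negative without resveratrol 1 (-0.23), control 1 (-0.01) or control 2 (-0.02). Leaving out 1 library moved CD3E from -0.26 to 0.82, CD4 from -1.06 to 0.16, CD5 from -0.74 to 0.02, CD6 from -0.64 to 0.07, CD8A from -1.16 to 0.28, CD8B from -0.44 to 0.63, LCK from -0.11 to 0.50, TRAT1 from -0.08 to 0.85, IL7R from -0.14 to 0.41, NKG7 from -0.27 to 0.25, PRF1 from -0.36 to 0.44 and GZMA from -0.04 to 0.77. At an unadjusted p under 0.05 in edgeR, CD2, TBX21 and KLRK1 were higher without resveratrol 2, as were 1.86% of all rows. At that threshold CD247 was higher without control 3 (4.29% of all rows) and with library totals alone (4.06%). CD8A was lower without resveratrol 1 (2.23% of all rows). TNFRSF17 was lower without control 1 (4.21% of all rows) and in limma with pseudocounts of 0.5, 1 and 0.1 (3.74%, 3.71% and 3.84%). In limma with pseudocounts of 0.5, 1 and 0.1, CD8B was at -0.04, -0.02 and -0.09 and NKG7 at -0.04, -0.03 and -0.04. CD8A was at 0.0028 with library totals alone. The cause was not tested. Of the 21 member rows, 14 were above 0 with TMM, 15 with library totals alone (57.4% of all rows) and 12 in limma with a pseudocount of 0.5 (37.6% of all rows). With library totals alone, rows at an unadjusted p under 0.05 were 605 higher and 339 lower, against 329 and 644 with TMM.

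Replicate numbers are shared across diets in the labels, but the correlations of deviations from the group means were 0.157, 0.0741 and 0.200 for equal numbers, so no pairing was assumed, although each library correlated best with its own number. With the replicate block 0 rows were called, and the medians were 0.15, 0.22 and -0.18. CD247 was higher there at an unadjusted p under 0.05 in edgeR, as were 3.0% of all rows. The minimum mean TPM kept 9 of the 30 member rows out of the tests.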
